A study of Mus musculus with 16 samples.

Results

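The genes described here encode the nuclear-encoded subunits of oxidative phosphorylation in mouse bone-marrow myeloid progenitors. They were chosen by symbol among the genes with a probe set of 1 symbol: those starting with Ndufa, Ndufb, Ndufc, Ndufs or Ndufv, Uqcr, Cox4i, Cox5, Cox6, Cox7, Cox8 or Atp5, and Sdha, Sdhb, Sdhc, Sdhd and Cyc1, without assembly factors and pseudogenes. This gave 80 of 22180 measured genes, with 34 in complex I, 4 in complex II, 8 in complex III, 17 in complex IV and 17 in complex V, each read on its brightest probe set. A further 8 subunit symbols, among them Cox6c and Uqcr10, stood only on probe sets shared with other symbols and are not members.

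Progenitors were sorted from C57BL/6 mice that had drunk antibiotic water, with ampicillin, metronidazole, neomycin and vancomycin at 1 g/L each, or control water, both with 2% sucrose, for 3 weeks. Common myeloid progenitors (CMPs), granulocyte-monocyte progenitors (GMPs) and committed monocyte progenitors (cMoPs) were gated as Lin- c-Kit+ CD105-, CMPs with intermediate and GMPs with high CD16/32 and no CD115, cMoPs with CD115 and Ly6C. The arrays numbered 3 antibiotic and 3 control for CMPs, 3 antibiotic and 2 control for GMPs, and 3 antibiotic and 2 control for cMoPs. The labels do not say whether an array holds 1 mouse or a pool, so every p-value here rests on how far these arrays spread, which may be technical variation. Values are deposited log2 signals, and the number of arrays limits their precision.

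Electrons from NADH enter the respiratory chain at complex I, and electrons from succinate enter at complex II. They pass through complex III and cytochrome c to complex IV, which reduces oxygen, and complex V makes ATP from the proton gradient that complexes I, III and IV build. Most subunits are encoded in the nucleus and the rest in mitochondrial DNA, and some subunits of complex IV have tissue-restricted isoforms. Blood stem cells are known for relying on glycolysis, and their committed progeny use mitochondrial respiration more.

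Of 8 measured genes of the sort gates, 5 were called higher and 3 lower in GMPs than in CMPs, and 5 higher and 2 lower in cMoPs than in CMPs. Csf1r, which encodes CD115, averaged 6.81 in CMPs, 7.39 in GMPs and 9.34 in cMoPs, and Fcgr3, one of the CD16/32 genes, 6.67, 9.81 and 9.41 in the same order. Fcgr2b, Ly6c1 and Ly6c2 were the other higher genes in both. Kit, at 10.51, 10.03 and 9.41, and Eng, which encodes the excluded CD105, at 8.33, 6.71 and 7.12, were lower in both, and Cd34, at 10.71, 10.24 and 10.57, in GMPs. One array stood apart: CMP control 2 scored 31.8 on the fourth principal component of all genes (4.82% of the variance), against -20.1 to 9.4 for the other arrays. Without it, the counts of called members given for GMPs against CMPs, cMoPs against GMPs and cMoPs against CMPs were 2, 2 and 7, and Cox6a2 lost its call. Markers of other lineages also differed in level between the progenitors. The mean of 7 measured erythroid markers of 10 listed lay at 9.07 to 9.42 on the CMP arrays, 5.83 to 6.28 on the GMP arrays and 5.27 to 5.46 on the cMoP arrays, and that of 4 megakaryocyte markers of 6 listed at 6.99 to 7.56, 5.4 to 6.06 and 4.02 to 4.43. The mean of 10 monocyte markers lay at 6.65 to 7.38 in CMPs, 7.58 to 7.96 in GMPs and 9.29 to 9.53 in cMoPs. That of 7 neutrophil primary granule markers lay at 8.59 to 9.61, 11.38 to 11.55 and 10.63 to 10.85 in the same order. For 6 eosinophil, basophil and mast cell markers it lay at 6.18 to 6.76, 8.04 to 8.45 and 4.86 to 5.12. The part of these markers in the differences between progenitors was not tested. In sorted bulk samples, fewer cells that express a gene and less RNA of it per cell cannot be told apart.

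Most subunit genes were bright and their group means lay close together. Of the 80, 76 were brighter than the median gene (4.42) and 60 had a mean signal of 8 or more, against upper quartiles of 6.24 to 6.41 on the 16 arrays. The range of the 6 group means had a median of 0.262 over the members and 0.437 over all genes, and 68 members (85%) stayed within 0.5, against 60.4% of all genes. A range of 1 or more was reached by 3 members (3.75%), the complex IV isoform genes Cox6b2 (1.53), Cox6a2 (1.44) and Cox4i2 (1.06), against 9.85% of all genes. The spread between arrays of a group had a median residual SD of 0.116 over the members and 0.212 over all genes. At the dim end were Cox7b2 and Cox8c, whose products are testis isoforms. Cox7b2 (2.14) lay below the lower quartile of every array (2.89 to 2.99), and Cox8c (2.83) had group means of 2.75 to 2.91, so neither is shown to be above background. Atp5e, the epsilon subunit of ATP synthase, averaged 13.05.

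**Figure D1:**
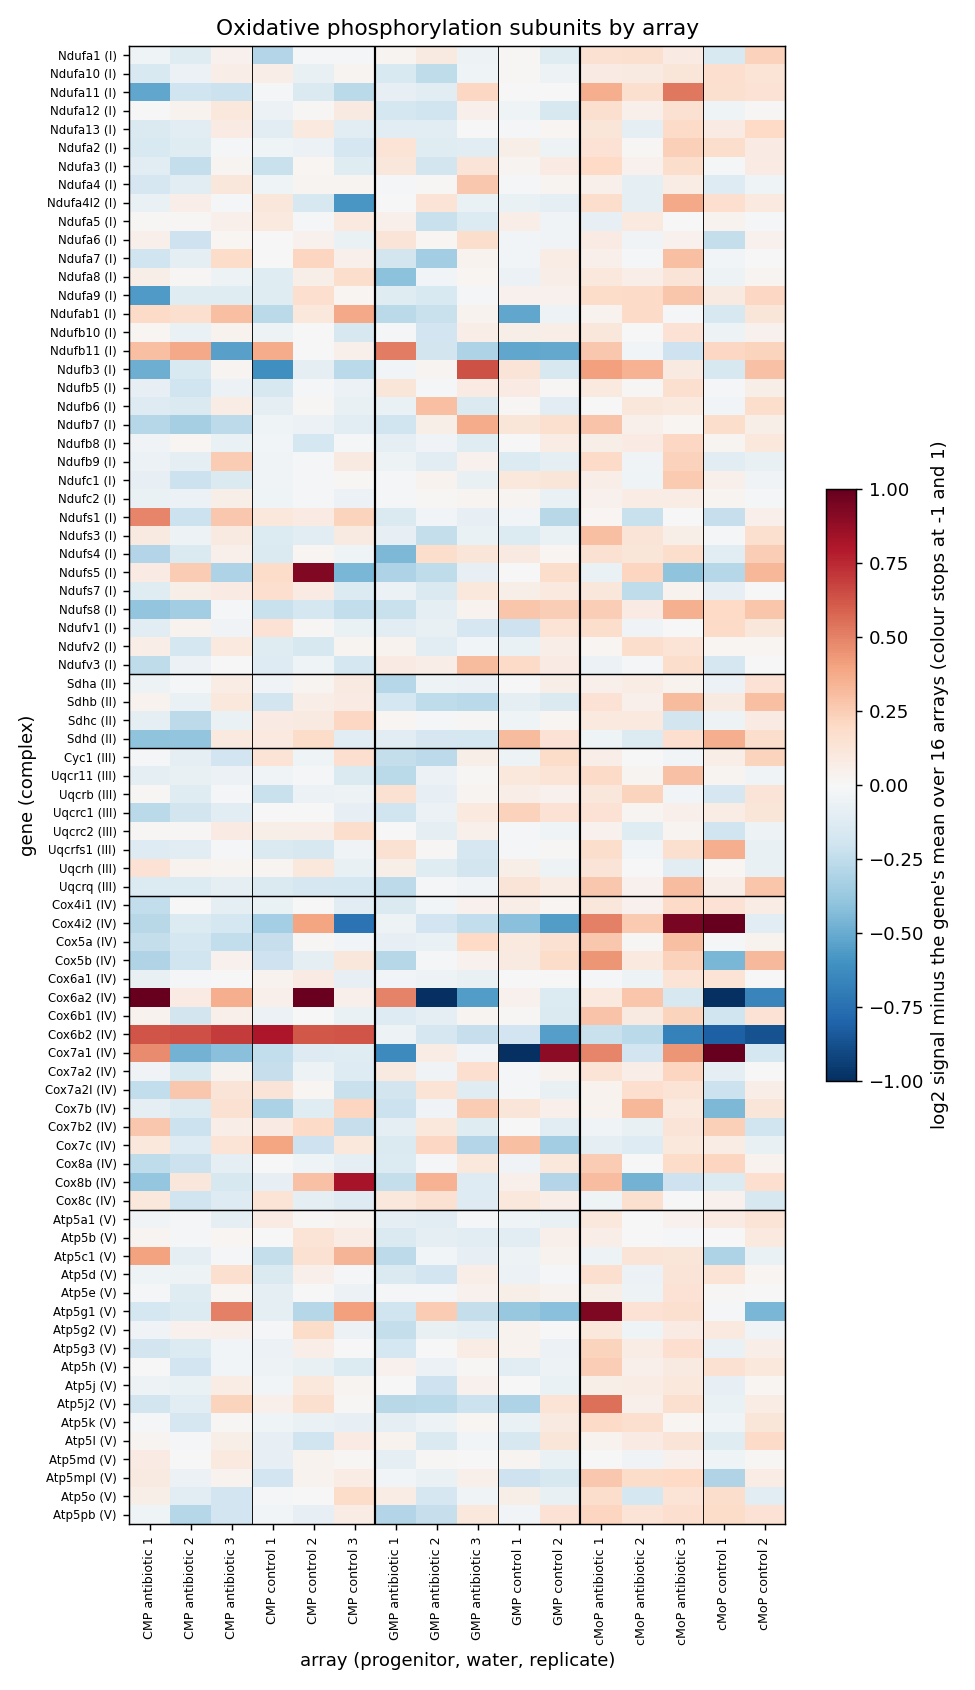
Log2 signal of the 80 subunit genes (rows, grouped by complex I to V) on each of the 16 arrays (columns), as the deviation from the gene's mean over the arrays, with antibiotic arrays left of control arrays within each progenitor. Most rows are pale. Cox6b2 is red on all 6 CMP arrays, nearly white on GMP antibiotic 1 and blue on the other GMP and cMoP arrays. Arrays of 1 group differ visibly for Cox6a2 and Cox7a1.

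Promoter sequences were available in RefSeq (GRCm38.p6) for 65 members, with 70 windows from 250 bases before to 50 bases after a start site. These windows were searched on both strands for the letters of 5 motifs of factors known to act on respiratory genes. GCGCATG, one arm of the nuclear respiratory factor 1 palindrome, occurred in 18.6% of the members' windows and 3.91% of all 32851 windows in the table. For the ETS core CCGGAAG the shares were 24.3% and 8.86%, for the YY1 core AAGATGG 14.3% and 6.34%, for the oestrogen-related receptor core AAGGTCA 8.57% and 4.72%, and for the GC box GGGCGG 41.4% and 35.7%. A match is a description of the letters and no site or cause. The promoters of Cox6b2, Ndufs8, Ndufa11 and Sdhb are shown because these genes differed between progenitors, and that of Sdhd because it had the smallest p of the members for antibiotics averaged over the progenitors. Capitals mark motif matches on either strand. Cox6b2 (chr7:4753045-4753344, minus strand) has 1 GC box and none of the other motifs. Ndufs8 (chr19:3912725-3913024, minus strand) has 1 ETS core. In Ndufa11 (chr17:56717512-56717811, plus strand) the nuclear respiratory factor 1 arm occurs on both strands and the 2 matches overlap. Sdhb (chr4:140961021-140961320, plus strand) has 3 GC boxes, 1 nuclear respiratory factor 1 arm and 1 ETS core, and Sdhd (chr9:50603800-50604099, minus strand) has an ETS core, a GC box and an oestrogen-related receptor core. Read 5′ to 3′ along the gene's strand they are:
Cox6b2: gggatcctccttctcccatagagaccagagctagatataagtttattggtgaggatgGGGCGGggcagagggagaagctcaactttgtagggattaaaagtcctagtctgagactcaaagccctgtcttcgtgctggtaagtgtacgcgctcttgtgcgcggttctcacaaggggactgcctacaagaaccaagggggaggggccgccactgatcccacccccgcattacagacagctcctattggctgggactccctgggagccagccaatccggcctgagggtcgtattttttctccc
Ndufs8: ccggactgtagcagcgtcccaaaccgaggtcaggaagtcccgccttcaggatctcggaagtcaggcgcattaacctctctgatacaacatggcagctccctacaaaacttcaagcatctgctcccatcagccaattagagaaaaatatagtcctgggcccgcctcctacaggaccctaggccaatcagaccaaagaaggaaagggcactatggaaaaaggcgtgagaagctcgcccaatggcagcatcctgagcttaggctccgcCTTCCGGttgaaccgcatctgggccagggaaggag
Ndufa11: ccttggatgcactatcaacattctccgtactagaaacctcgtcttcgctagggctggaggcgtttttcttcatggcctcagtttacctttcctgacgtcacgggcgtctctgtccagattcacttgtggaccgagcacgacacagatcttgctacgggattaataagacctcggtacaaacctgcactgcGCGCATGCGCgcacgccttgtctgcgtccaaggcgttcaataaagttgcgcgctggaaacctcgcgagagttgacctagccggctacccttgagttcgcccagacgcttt
Sdhb: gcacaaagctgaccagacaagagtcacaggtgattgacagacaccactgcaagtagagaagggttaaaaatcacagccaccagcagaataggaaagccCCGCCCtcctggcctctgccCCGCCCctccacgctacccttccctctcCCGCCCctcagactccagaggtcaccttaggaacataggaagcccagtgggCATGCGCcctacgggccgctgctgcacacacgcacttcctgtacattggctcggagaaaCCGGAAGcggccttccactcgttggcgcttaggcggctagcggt
Sdhd: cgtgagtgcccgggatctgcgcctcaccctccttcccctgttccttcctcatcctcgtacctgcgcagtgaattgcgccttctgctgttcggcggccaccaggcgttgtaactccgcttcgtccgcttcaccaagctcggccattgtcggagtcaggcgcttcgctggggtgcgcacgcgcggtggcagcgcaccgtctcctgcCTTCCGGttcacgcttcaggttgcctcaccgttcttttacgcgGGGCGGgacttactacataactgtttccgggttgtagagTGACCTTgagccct

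Comparing cMoPs with CMPs, the ends of the path sampled here, 7 of 80 members were called (8.75%) at an adjusted p under 0.05, against 18.9% of all genes (limma, both waters averaged). With trend and robust variances the shares were alike, 16 of 80 members (20%) and 20.1% of all genes. At an unadjusted p under 0.05 there were 17, 21.2% of the members, against 29.4% of all genes. Of the 7 called, 5 were higher in cMoPs (all genes: 9.72%), namely Ndufs8, Ndufa11 and Ndufa9 of complex I, Uqcrq of complex III and Cox4i2 of complex IV. The other 2, Cox6b2 and Cox6a2 of complex IV, were lower (all genes: 9.2%). The other members lay between -0.24 (Ndufs1) and 0.50 (Cox7a1, SE 0.31, adjusted p = 0.318) and were not called. The median difference was 0.0833 over the members, with 62 of 80 positive (77.5%), and 0.0442 over all genes, with 58.1% positive. Quantile normalization gave 50 positive members (median 0.0532), control arrays alone 48 (0.0567) and antibiotic arrays alone 66 (0.135). By complex the medians were 0.115 for I, 0.107 for II, 0.135 for III, 0.0542 for IV and 0.0717 for V.

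**Figure D2:**
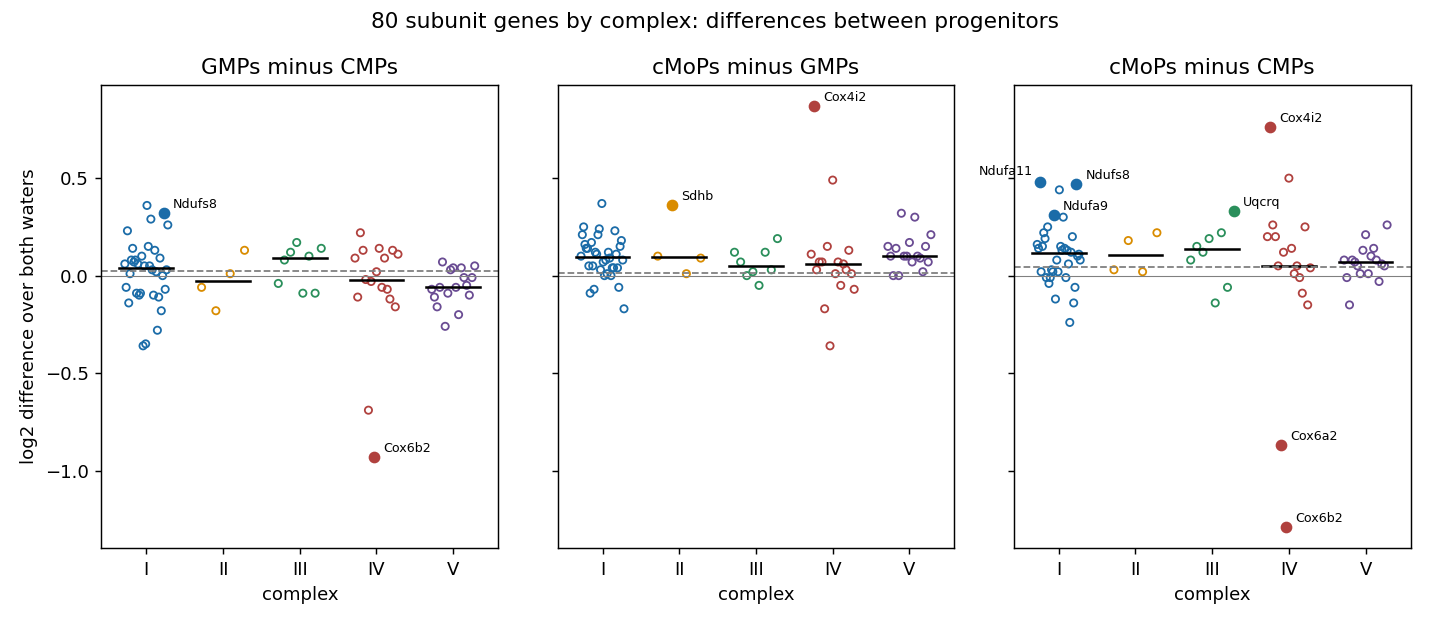
Log2 differences between progenitors, averaged over both waters, for the 80 subunit genes by complex. Filled, named points passed an adjusted p of 0.05, open points did not, black bars are medians of a complex and the dashed line is the median of all genes. Cox6b2 lies at -0.93 in GMPs minus CMPs and at -1.29 in cMoPs minus CMPs, while most points lie within 0.5 of 0.

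Cox6b2 encodes the testis isoform of subunit VIb of cytochrome c oxidase and lies on chromosome 7, where no annotated gene overlaps it. On the CMP arrays its signal was 10.47, 10.48 and 10.54 after antibiotics and 10.65, 10.46 and 10.47 with control water. On the GMP arrays it was 9.79, 9.67 and 9.61 after antibiotics and 9.65 and 9.29 with control water. On the cMoP arrays it was 9.62, 9.57 and 9.16 after antibiotics and 9.02 and 8.97 with control water. Every CMP array was thus above every GMP and cMoP array, and the GMP and cMoP arrays overlapped. Cox6b2 was 1.91-fold lower in GMPs than in CMPs (log2 difference -0.93 ± 0.10 SE, adjusted p = 7.34e-06) and 2.44-fold lower in cMoPs than in CMPs (-1.29 ± 0.10, adjusted p = 1.53e-07). Cox6b2 kept both calls under all 26 alternatives, with differences of -1.06 to -0.81 and of -1.53 to -1.05. Between cMoPs and GMPs it differed by -0.36 ± 0.11 (adjusted p = 0.0805), which was not called. The ubiquitous isoform gene Cox6b1 showed a cMoP minus CMP difference of 0.12 ± 0.09 (adjusted p = 0.421). Whether probes tell these paralogs apart was not tested.

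Cox6a2 encodes the heart and muscle isoform of subunit VIa, and the annotated span of the integrin gene Itgad overlaps it. Its signal on the CMP arrays was 7.61, 6.41 and 6.69 after antibiotics and 6.38, 7.32 and 6.38 with control water. On the GMP arrays it was 6.83, 5.20 and 5.77 after antibiotics and 6.37 and 6.19 with control water. On the cMoP arrays it was 6.43, 6.61 and 6.17 after antibiotics and 5.25 and 5.67 with control water. The progenitors overlapped: antibiotic arrays 1 and 2 of the cMoPs and array 1 of the antibiotic GMPs lay within the range of the CMP arrays, and the other cMoP and GMP arrays below it. Cox6a2 was 1.82-fold lower in cMoPs than in CMPs (-0.87 ± 0.28, adjusted p = 0.0395). The call was lost under 9 of 26 alternatives, whose adjusted p ranged from 0.0135 to 0.504 over all of them. Those that lose it include leaving out CMP antibiotic 1 (-0.69, adjusted p = 0.0967) or CMP control 2 (-0.71, 0.0957), the brightest CMP arrays, or cMoP antibiotic 1 (-0.87, 0.0647) or 3 (-0.81, 0.0845), or cMoP control 1 (-0.76, 0.16) or 2 (-0.97, 0.0569). In antibiotic arrays alone the difference was -0.50 (adjusted p = 0.504). Itgad differed by 0.13 (adjusted p = 0.49), and the ubiquitous isoform gene Cox6a1 by 0.05 ± 0.08 (adjusted p = 0.719).

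Cox4i2 encodes the isoform of subunit IV known from lung and from low oxygen, and overlaps the annotated spans of Bcl2l1 and Gm32057. Its signal on the CMP arrays was 4.87, 5.01 and 4.97 after antibiotics and 4.81, 5.54 and 4.41 with control water. On the GMP arrays it was 5.10, 4.96 and 4.90 after antibiotics and 4.73 and 4.59 with control water. On the cMoP arrays it was 5.65, 5.41 and 6.10 after antibiotics and 6.29 and 5.04 with control water. The antibiotic cMoPs lay above all GMP arrays and cMoP control 2 lay among the CMP and GMP arrays. Cox4i2 was 1.83-fold higher in cMoPs than in GMPs (0.87 ± 0.23, adjusted p = 0.0366) and 1.69-fold higher than in CMPs (0.76 ± 0.22, adjusted p = 0.0216). Without cMoP control 1, its brightest array, these differences were 0.56 (adjusted p = 0.212) and 0.44 (adjusted p = 0.182). The call against CMPs was also lost without cMoP antibiotic 3 (0.66, adjusted p = 0.0572) or CMP control 3 (0.63, adjusted p = 0.0562), and its adjusted p over all alternatives ranged from 0.00154 to 0.354. The call against GMPs was lost without any 1 of the 5 GMP arrays (0.83 to 0.90) and without cMoP antibiotic 1 or 3 (0.89 and 0.77), with adjusted p from 0.00333 to 0.528 over all alternatives. Bcl2l1 fell short of a call at -0.29 (cMoPs minus CMPs, adjusted p = 0.153), and the ubiquitous isoform gene Cox4i1 differed by 0.20 ± 0.08 (adjusted p = 0.115).

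**Figure D3:**
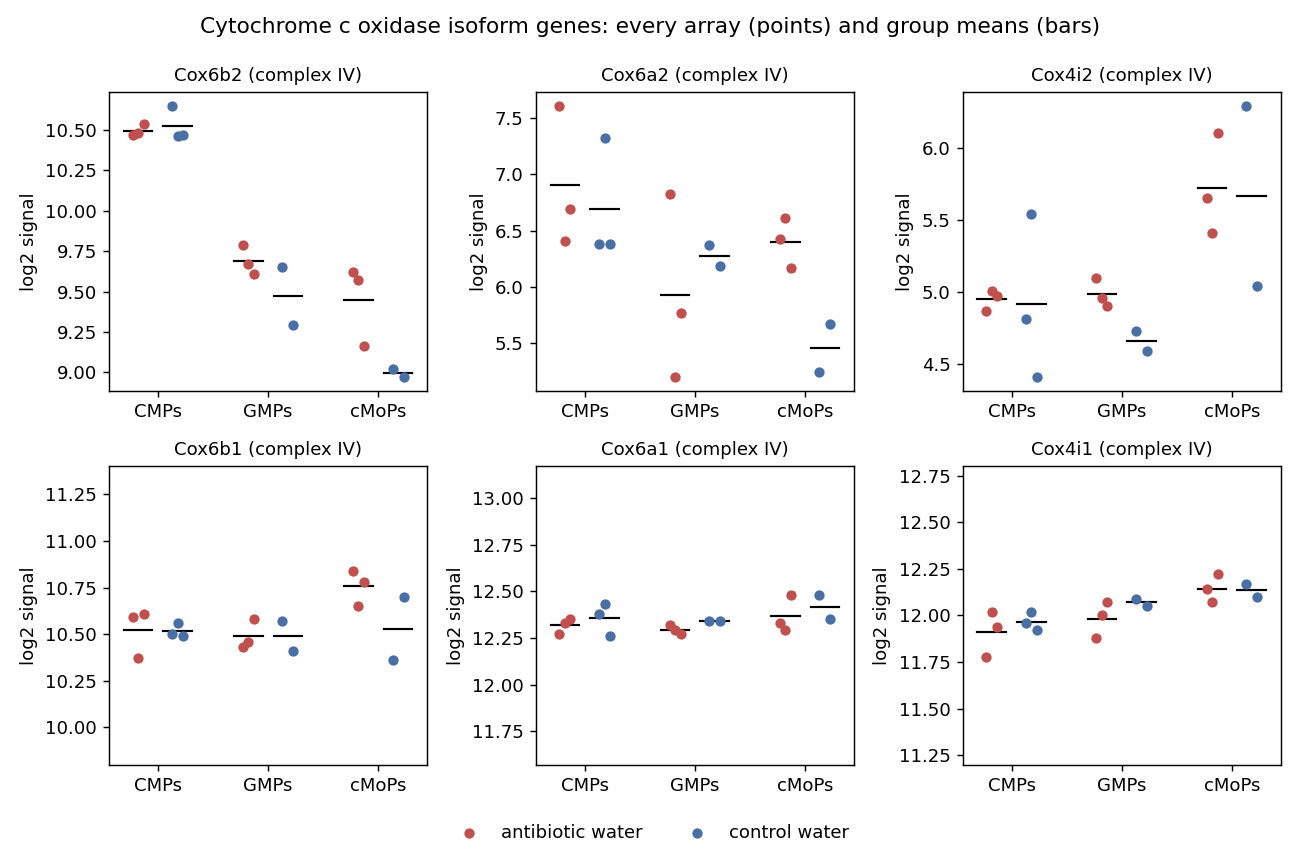
Log2 signal of the tissue-restricted isoform genes Cox6b2, Cox6a2 and Cox4i2 (top) and of the ubiquitous isoform genes Cox6b1, Cox6a1 and Cox4i1 (bottom) on every array (points) with group means (bars), antibiotic arrays in red left of control arrays in blue. Axes differ between panels. The CMP arrays of Cox6b2 sit above 10.4 and the others below 9.8, and arrays of 1 group lie far apart for Cox6a2 and Cox4i2.

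The other isoform genes of complex IV did not pass the test between cMoPs and CMPs. Cox7a1 and Cox8b, isoforms of heart and skeletal muscle, differed by 0.50 ± 0.31 and -0.15 ± 0.18, and their counterparts Cox7a2 and Cox8a by 0.14 ± 0.08 and 0.25 ± 0.09. For Cox8a the adjusted p was 0.0578. Single arrays moved the dim ones: Cox7a1 differed by 0.19 without cMoP control 1 and 0.82 without cMoP control 2, and Cox8b by -0.03 without CMP control 3 and -0.26 without cMoP antibiotic 1. Ndufa4, now counted with complex IV, and its hypoxia-induced relative Ndufa4l2 differed by -0.01 ± 0.09 and 0.25 ± 0.12. The genes for the c subunit of ATP synthase, Atp5g1, Atp5g2 and Atp5g3, differed by 0.05 ± 0.19, 0.01 ± 0.08 and 0.13 ± 0.08.

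Ndufs8, which encodes an iron-sulphur subunit of the hydrophilic arm of complex I, was called in both GMPs and cMoPs against CMPs. Its signal on the CMP arrays was 9.19, 9.24 and 9.57 after antibiotics and 9.36, 9.41 and 9.34 with control water. On the GMP arrays it was 9.36, 9.49 and 9.62 after antibiotics and 9.86 and 9.83 with control water. On the cMoP arrays it was 9.83, 9.67 and 9.94 after antibiotics and 9.78 and 9.86 with control water. Every cMoP array was above every CMP array. Ndufs8 was 1.38-fold higher in cMoPs than in CMPs (0.47 ± 0.10, adjusted p = 0.00207), a call lost only in control arrays alone (0.45, adjusted p = 0.112). It was 1.24-fold higher in GMPs than in CMPs (0.32 ± 0.10, adjusted p = 0.0333), where the CMP arrays overlapped the antibiotic GMP arrays. The call in GMPs was lost under 11 of 26 alternatives, with differences of 0.16 to 0.48 and adjusted p from 0.00543 to 0.607. Among them were the fits without CMP antibiotic 1 or 2, CMP control 1 or 3, GMP antibiotic 2 or 3 and either GMP control, with differences of 0.28 to 0.32.

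Ndufa11, an accessory subunit of the membrane arm of complex I, had 10.17, 10.49 and 10.48 in CMPs after antibiotics and 10.68, 10.55 and 10.42 in control CMPs. Its signal in GMPs was 10.61, 10.59 and 10.90 after antibiotics and 10.69 and 10.69 with control water. In cMoPs it was 11.06, 10.85 and 11.22 after antibiotics and 10.85 and 10.84 with control water, so that every cMoP array was above every CMP array. The cMoP minus CMP difference was 0.48 ± 0.10 (adjusted p = 0.00314), and in control arrays alone 0.30 (adjusted p = 0.341). A dimmer probe set of Ndufa11 differed by 0.33 ± 0.19, which did not pass (adjusted p = 0.351 over all probe sets).

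Uqcrq, a small subunit of complex III, lay at 9.09, 9.09 and 9.13 in CMPs after antibiotics and 9.08, 9.06 and 9.05 in control CMPs. In GMPs it lay at 8.96, 9.21 and 9.19 after antibiotics and 9.35 and 9.30 with control water. In cMoPs it lay at 9.49, 9.27 and 9.53 after antibiotics and 9.29 and 9.50 with control water, again above every CMP array. Its cMoP minus CMP difference was 0.33 ± 0.09 (adjusted p = 0.0134), and without cMoP control 2 it was 0.28 (adjusted p = 0.0741). Over all alternatives the adjusted p of Uqcrq ranged from 0.00168 to 0.267. Ndufa9, an accessory subunit of complex I, differed by 0.31 ± 0.10 (adjusted p = 0.0429), with 8.38 to 9.12 on the CMP arrays and 9.04 to 9.23 on the cMoP arrays, which overlapped. Its call was lost under 17 of 26 alternatives, 13 of them single arrays left out, with adjusted p from 0.0129 to 0.727. These arrays were every cMoP and GMP array, CMP antibiotic 1 and CMP control 1 and 3, and the differences without them were 0.23 to 0.34.

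From GMPs to cMoPs, 2 of 80 members were called (2.5%), both higher in cMoPs, against 5.42% of all genes, 2.6% higher and 2.82% lower. One was Cox4i2 and the other Sdhb, the iron-sulphur subunit of succinate dehydrogenase. Sdhb had 8.34, 8.25 and 8.51 in cMoPs after antibiotics and 8.29 and 8.50 in control cMoPs, against 8.02, 7.94 and 7.93 in GMPs after antibiotics and 8.11 and 8.05 in control GMPs. No GMP array reached a cMoP array, and CMP arrays lay between 8.01 and 8.30. The difference was 0.36 ± 0.10, 1.28-fold (adjusted p = 0.0376), and its adjusted p ranged from 0.0133 to 0.69 over 26 alternatives, with the call lost under 14. These included the fits without cMoP antibiotic 1 or 3, cMoP control 2, CMP antibiotic 1 or any 1 of the GMP arrays, at 0.31 to 0.37. Over the whole set, 70 of 80 members had positive differences (87.5%, against 52.9% of all genes), with a median of 0.0912, against 0.0133 over all genes. All 17 complex V genes had a difference of 0 or above, with a median of 0.1 and none called. Quantile normalization gave 58 positive members (median 0.0521), and control arrays alone 50 (0.0275).

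From CMPs to GMPs, 2 of 80 members were called (2.5%), against 16% of all genes, 7.87% higher and 8.17% lower. These were Ndufs8, higher in GMPs, and Cox6b2, lower in GMPs. The median difference of the members was 0.00958, with 41 of 80 positive, against 0.025 over all genes. By complex the medians ran from -0.055 for V, where 12 of 17 were negative, to 0.0883 for III. Comparisons that share a progenitor share its arrays and are not independent. In all, 8 of 80 members were called in at least 1 of the 3 comparisons between progenitors and 72 in none, against 24% of all genes called in at least 1.

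No subunit gene passed the test for antibiotics at the study's false discovery rate of 0.2. Of 80 members, 0 were called in CMPs (all genes: 0.0406%), 0 in GMPs (0.0721%), 0 in cMoPs (0.131%), 0 for the mean over the 3 progenitors (0.514%) and 0 for the interaction of water and progenitor (0.00451%), all by limma. Split by direction, the shares of all genes called higher and lower were 0.0225% and 0.018% for CMPs, 0.0496% and 0.0225% for GMPs, 0.0902% and 0.0406% for cMoPs, and 0.271% and 0.243% for their mean. At an unadjusted p under 0.05 there were 2, 2, 4, 5 and 0 members, 2.5%, 2.5%, 5%, 6.25% and 0% of them, against 7.24%, 7.49%, 6.2%, 9.54% and 5.79% of all genes. The median standard error of a member's difference was 0.12 in CMPs and 0.14 in GMPs and cMoPs. Median differences of the members were -0.02 in CMPs, -0.0425 in GMPs and 0.0525 in cMoPs, against -0.00667, -0.0133 and -0.0117 over all genes. Genes brighter than the median gene, as most members were, had medians of -0.02, -0.00667 and 0.0217. Of these bright genes, 45.7%, 48.4% and 54.3% had positive differences. Positive differences were found for 35, 25 and 57 members (43.8%, 31.2% and 71.2%) in the same order, against 48%, 47.4% and 47.5% of all genes. These counts moved with the scaling: quantile normalization gave 47, 34 and 49 positive members, with medians of 0.0167, -0.0155 and 0.0359, and centring each array on its median gene gave 19, 19 and 67, with medians of -0.0633, -0.0608 and 0.0892. The sign of the median in CMPs thus turned. Marker levels also differed by water: the mean of the erythroid markers was 6.16 to 6.28 on antibiotic GMP arrays and 5.83 to 5.94 on control GMP arrays. The mean of the monocyte markers was 6.65 to 7.09 on antibiotic and 7.24 to 7.38 on control CMP arrays, and 7.58 to 7.76 on antibiotic and 7.87 to 7.96 on control GMP arrays. On the cMoP arrays the monocyte mean ran the other way, at 9.4 to 9.53 on antibiotic and 9.29 to 9.34 on control arrays. There 5 of the 10 monocyte genes had positive and 5 negative differences, with a median of 0.0175 and 0 called. In CMPs 8 of the 10 were negative (median -0.578) and 1 was called lower, in GMPs 8 (-0.35) and 0. For the mean over the 3 progenitors 4 were called lower. Of 7 erythroid genes 5 were positive and 2 negative in GMPs, and 1 was called higher. The mean of 6 dendritic cell markers in CMPs was 6.02 to 6.3 on antibiotic and 5.87 to 5.99 on control arrays, with 0 called. That of 4 megakaryocyte markers in GMPs was 5.9 to 6.06 and 5.4 to 5.89, with 0 called. The mean of 6 stem and multipotent progenitor markers in cMoPs was 4.77 to 4.97 on antibiotic and 5.11 to 5.25 on control arrays. The part of these markers in the differences of the members was not tested.

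Sdhd, a membrane anchor subunit of succinate dehydrogenase, had the smallest p of the members for the mean over the 3 progenitors. Its signal in CMPs was 9.19, 9.20 and 9.69 after antibiotics and 9.69, 9.78 and 9.48 with control water. In GMPs it was 9.49, 9.43 and 9.42 after antibiotics and 9.91 and 9.74 with control water. In cMoPs it was 9.55, 9.46 and 9.76 after antibiotics and 9.96 and 9.77 with control water. Antibiotic arrays lay below control arrays without overlap in GMPs and, narrowly, in cMoPs, and the groups overlapped in CMPs. For scale, 14 members in GMPs and 2 in cMoPs had all antibiotic arrays below all control arrays, against 12.6% and 11.4% of all genes. The differences of Sdhd were -0.29 ± 0.15 in CMPs, -0.38 ± 0.17 in GMPs and -0.28 ± 0.17 in cMoPs, and their mean was -0.31 ± 0.09 (adjusted p = 0.278), which is not called. The adjusted p of that mean ranged from 0.108 to 0.5 over 24 alternatives and passed 0.2 under 3 of them, among them the fit without CMP antibiotic 3, the highest antibiotic array in CMPs (-0.37, adjusted p = 0.151). The other subunits of complex II differed by no more than 0.27 in size in any progenitor, with Sdhc at -0.27 ± 0.12 in CMPs (adjusted p = 0.664).

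**Figure D4:**
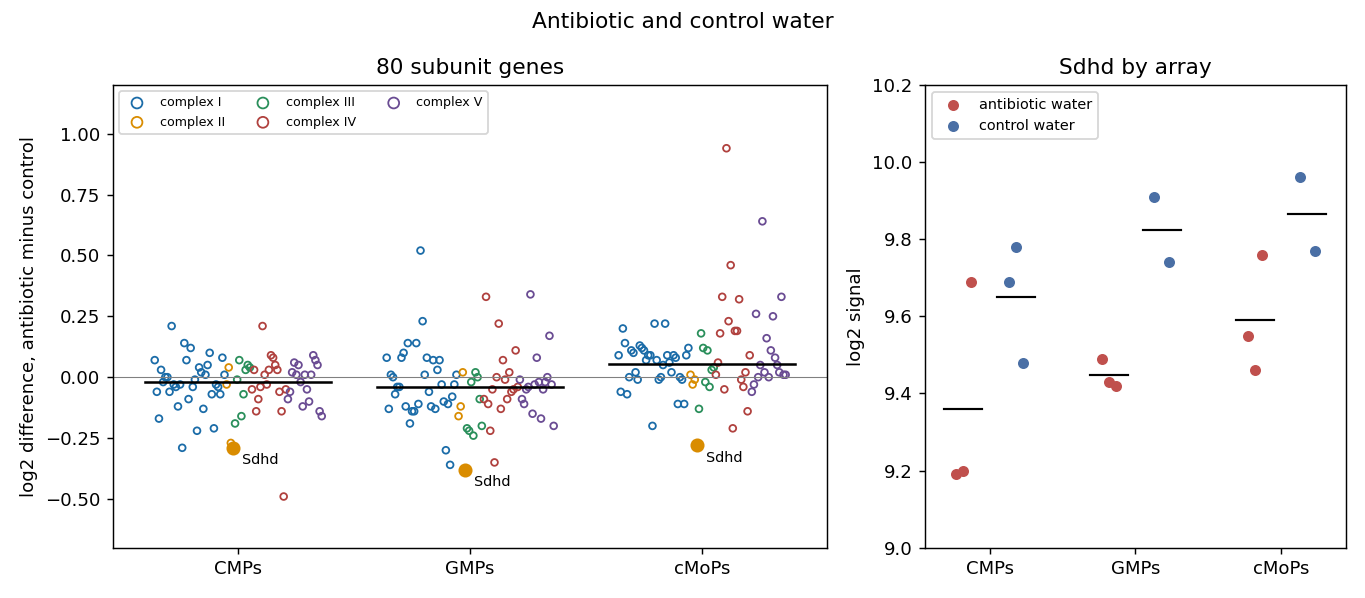
Left, the log2 difference of antibiotic minus control water for each of the 80 subunit genes in CMPs, GMPs and cMoPs, coloured by complex, with the median as a bar. Sdhd is filled and lies at -0.29, -0.38 and -0.28. Right, Sdhd signal on every array with group means, antibiotic arrays in red left of control arrays in blue.

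In cMoPs the members with the smallest p were Cox6b2, Atp5mpl and Atp5g1. Cox6b2 differed by 0.46 ± 0.16 (adjusted p = 0.648), with all 3 antibiotic arrays above both control arrays. For scale, 12 of 80 members and 9.59% of all genes had all antibiotic arrays above all control arrays in cMoPs. Cox6a2 was another of these and had the largest difference of a member in cMoPs, 0.94. Atp5mpl, a small subunit of ATP synthase, had 11.18, 11.09 and 11.11 after antibiotics and 10.61 and 10.98 with control water (0.33, adjusted p = 0.782). Atp5g1 had 5.59, 4.8 and 4.82 after antibiotics and 4.65 and 4.20 with control water (0.64, adjusted p = 0.798). None of these was called. Without cMoP control 1 the difference of Atp5mpl was 0.15 and that of Atp5g1 0.87, without cMoP control 2 that of Atp5mpl was 0.52, and without cMoP antibiotic 1 that of Atp5g1 was 0.38. In GMPs the smallest p belonged to Ndufs8 (-0.36 ± 0.14, adjusted p = 0.609) and in CMPs to Sdhc. For the interaction the smallest p was that of Cox6b2 (adjusted p = 0.893), so a difference in the antibiotic effect between progenitors was not shown for any member.

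Other genes of mitochondrial respiration were followed in 6 lists, none of which had a member called for antibiotics in any progenitor. For scale, only 0.0406% of all genes were called for antibiotics in CMPs, 0.0721% in GMPs and 0.131% in cMoPs. Among 43 measured assembly factors of 46 listed, the counts called higher and lower were 2 and 2 in GMPs against CMPs, 1 and 0 in cMoPs against GMPs, and 1 and 1 in cMoPs against CMPs. The shares of all genes called higher and lower, as above, were 7.87% and 8.17%, 2.6% and 2.82%, and 9.72% and 9.2%. Ndufaf3, an assembly factor of complex I, differed by 0.42 in GMPs (adjusted p = 0.0229) and 0.50 in cMoPs (adjusted p = 0.00643) against CMPs, and the call in GMPs was lost under 8 of 26 alternatives, 6 of them single arrays left out. Acad9, another complex I assembly factor, was 0.44 higher in GMPs than in CMPs (adjusted p = 0.00221). This call of Acad9 was lost in antibiotic arrays alone (0.22, adjusted p = 0.316) and in control arrays alone (0.67, adjusted p = 0.0531). Cox17, the copper chaperone of complex IV, was 0.26 lower in cMoPs than in CMPs on the log2 scale (-0.26, adjusted p = 0.0468). The other calls were Lyrm7 (-0.84, adjusted p = 0.0403) and Cox20 (-0.35, adjusted p = 0.0494), assembly factors of complexes III and IV, in GMPs against CMPs, and Ndufaf7, of complex I, in cMoPs against GMPs (0.59, adjusted p = 0.0495). All 4 calls with an adjusted p above 0.04 lay close to the threshold: leaving out a single array ended that of Cox17 and that of Cox20 for 13 of 16 arrays each, that of Ndufaf7 for 12 and that of Lyrm7 for 9. Over all alternatives their adjusted p reached 0.512 for Cox17, 0.528 for Cox20, 0.701 for Ndufaf7 and 0.226 for Lyrm7. The median over the assembly factors was 0.131 for cMoPs minus CMPs, with 33 of 43 positive. Over all genes it was 0.0442, with 58.1% positive. The median of this list was not followed through the alternatives.

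Among 17 genes of the tricarboxylic acid cycle, Idh2, the mitochondrial isocitrate dehydrogenase that makes NADPH, was higher than in CMPs both in GMPs (0.50, adjusted p = 0.000215) and in cMoPs (0.51, adjusted p = 0.000129). Suclg2, a subunit of succinyl-CoA ligase, was lower in GMPs than in CMPs (-0.34, adjusted p = 0.0172). No other gene of that list was called. For scale, here and for the lists that follow, 7.87% of all genes were called higher and 8.17% lower in GMPs against CMPs. The shares were 2.6% and 2.82% in cMoPs against GMPs, and 9.72% and 9.2% in cMoPs against CMPs. Cycs, which encodes cytochrome c, was the only called member of 12 genes for cytochrome c and coenzyme Q, at 0.33 in cMoPs against CMPs (adjusted p = 0.0237). Slc25a4, an ADP and ATP carrier, was the only one of 11 carrier and uncoupling genes, at 0.32 in cMoPs against CMPs (adjusted p = 0.0431) and 0.45 against GMPs (adjusted p = 0.0248). These calls of Slc25a4 were lost without any 1 of 10 and of 5 arrays, with adjusted p up to 0.378 and 0.605 over all alternatives. The call of Cycs was lost without cMoP antibiotic 1 (0.31, adjusted p = 0.0579), cMoP control 2 (0.26, 0.123) or CMP control 1 (0.28, 0.0557), and that of Suclg2 without GMP control 1 (-0.32, 0.064).

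The 22 measured regulators of mitochondrial gene expression gave 1 higher and 4 lower calls in cMoPs against CMPs, against 9.72% and 9.2% of all genes, with a median of -0.124 against 0.0442 over all genes. The lower ones were Pprc1, a coactivator of the PGC-1 family (-0.67, adjusted p = 9.55e-05), Twnk, the mitochondrial DNA helicase (-0.64, adjusted p = 0.00415), Myc (-0.61, adjusted p = 0.000141) and Tfam, which packages and transcribes mitochondrial DNA (-0.44, adjusted p = 0.044). Tfam was named after its values were seen and was not followed through the alternatives. In cMoPs against GMPs, 0 regulators were called higher and 1, Myc, lower (-0.4, adjusted p = 0.0233), against 2.6% and 2.82% of all genes. That call of Myc was lost under 9 of 26 alternatives. In GMPs against CMPs, 1 regulator was called higher and 3 lower, against 7.87% and 8.17% of all genes. Lower there were Pprc1 (-0.53, adjusted p = 0.00113), Twnk (-0.51, adjusted p = 0.0222) and Mterf2, a mitochondrial transcription termination factor (-0.61, adjusted p = 0.0421). Of 26 alternatives, 1 ended this call of Pprc1 and 6 that of Twnk. Hif1a, a subunit of the hypoxia-inducible factor, was 0.41 higher in cMoPs than in CMPs (adjusted p = 0.0397) and 0.82 higher in GMPs than in CMPs (adjusted p = 0.000331). The call of Hif1a in cMoPs was lost under 11 of 26 alternatives (0.24 to 0.51), 7 of them single arrays left out, and that of Mterf2 under 14 of 26 (-0.95 to -0.26), 8 of them single arrays left out. Of 13 subunits encoded in mitochondrial DNA, 10 were measured and none was called. All 10 were lower in cMoPs than in CMPs by a median of -0.133, and lower in GMPs than in CMPs by a median of -0.0988, from -0.18 for ND2 to -0.07 for ND3 and COX3. These genes are cut from shared precursor transcripts, so the 10 are not independent. Antibiotic minus control differences of the same 10 had a median of -0.0467 in GMPs, where all were negative, and 0.106 in cMoPs, where all were positive, with no call. Of all genes, 47.4% and 47.5% had positive antibiotic differences in GMPs and cMoPs. For cMoPs minus CMPs 58.1% of all genes were positive, and for GMPs minus CMPs 54.5%. The medians and signs of the regulators and of these 10 genes were not followed through the alternatives.

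**Figure D5:**
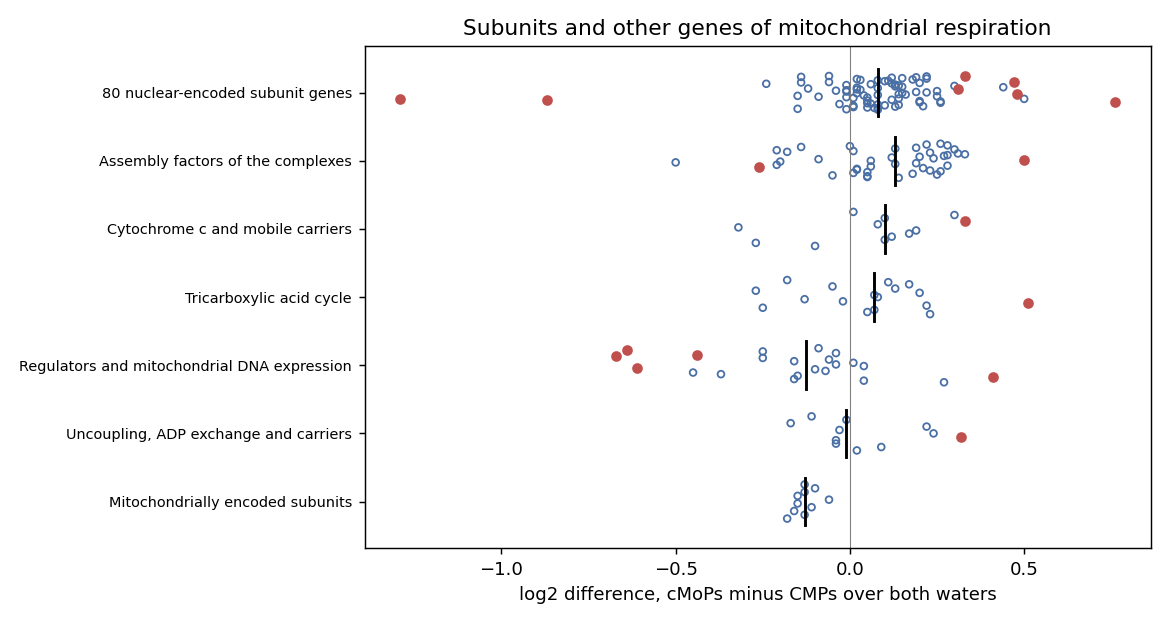
Log2 difference of cMoPs minus CMPs, averaged over both waters, for the 80 nuclear-encoded subunit genes and for 6 lists of other respiration genes (rows). Filled red points passed an adjusted p of 0.05, open points did not, and black bars are medians. The 10 mitochondrially encoded subunits lie between -0.18 and -0.06, left of the median of the nuclear-encoded subunits at 0.0833.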

How the data were processed

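The authors deposited a table of log2 signals, with a row for each probe set and a column for each array. The submitters' processing notes name Partek and Transcriptome Analysis Console, and the sources used here give no version, summarisation or normalization. Per the labels, 2.6 ng of RNA was amplified and labelled with biotin. Quartiles of the 16 arrays were close (median 4.04 to 4.17), so values were used as deposited, with no detection calls and no filter on dim genes. Arrays of a group correlated at r = 0.985 to 0.991 across genes and 0 pairs were identical.

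Of 41345 probe sets, 23521 carried 1 symbol in GEO's annotation, giving 22180 genes (the brightest of several probe sets), and 1814 with several and 16010 with no symbol were left out. Gene identifiers matched RefSeq for 23328 probe sets. The linear model of limma 3.58.1 (R 4.3.3) had a mean for each of 6 groups (10 residual degrees of freedom, prior 5.28). Adjusted p-values are Benjamini-Hochberg over all genes, two-sided, at 0.2 for antibiotics, as the study states for its 2-way analysis, and 0.05 between progenitors. Differences are log2 ± SE. The fit was tested on simulated data.

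The naming rule took up to 3 called members per complex, direction and progenitor comparison, the 3 of smallest p per direction and antibiotic contrast, the isoform pairs, the Sdh genes, the 5 brightest and 5 dimmest members, and up to 4 genes of smallest p per pathway list and progenitor comparison. Members and lists were chosen with earlier results of these data known. Replicate numbers are shared between groups. Deviations of same-numbered arrays correlated at r above 0.1 in 1 of 36 pairs (r from -0.049 to 0.104), and numbers were not treated as pairs. Only 15 of these pairs shared the water, and such correlations cannot settle whether same-numbered arrays share mice or a sort. Alternatives were another choice of probe sets, a filter, other variances and scalings, blocks, subsets of arrays and each array left out.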

Additional observations from a re-analysis of the deposited data

How the results depend on the processing

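No member was called for antibiotics within a progenitor or for the interaction under any alternative. For the mean over the 3 progenitors, 1 member (Sdhd) was called among genes brighter than the median gene and 2 (Sdhd, Atp5mpl) with trend and robust variances, and 0 to 1 when single arrays were left out. GMPs against CMPs gave 2 calls, but 1 when every probe set was tested, 5 among bright genes, 5 with trend and robust variances, 1 in control arrays alone, 1 in antibiotic arrays alone and 1 to 4 without single arrays. cMoPs against GMPs gave 2, but 0 over every probe set, 4 with trend and robust variances, 1 with arrays centred on the median gene, 0 in control and 1 in antibiotic arrays alone, and 0 to 2 without single arrays. The replicate block gave 1 there by number and 0 by water and number together. The median there was 0.0275 in control arrays alone. cMoPs against CMPs gave 7, but 4 over every probe set, 15 among bright genes, 16 with trend and robust variances, 2 in control arrays alone and 4 to 9 without single arrays, the lowest without cMoP antibiotic 3. Of all genes, 20.1% were called there with trend and robust variances (20% of members) and 38% among bright genes (19.7% of members), against 18.9% and 8.75% as reported. For GMPs against CMPs these shares were 17.4% (6.25%) and 33.2% (6.58%), and for cMoPs against GMPs 6.19% (5%) and 12.7% (3.95%). With the replicate block by number the count for cMoPs against CMPs was 8, and 2 for GMPs against CMPs. By water and number together it was 5, and 3 for GMPs against CMPs. The numbers were not treated as pairs in the main fit, but whether same-numbered arrays share mice or a sort was not settled. Under these blocks Cox4i2 against GMPs had adjusted p = 0.0569 and 0.057 (0.87), and by water and number together Cox4i2 against CMPs had 0.09 (0.63), Ndufa9 0.0716 and Sdhb 0.0602. Cox17, Cox20, Mterf2 and Slc25a4 (cMoPs against CMPs) lost their calls under both blocks.

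Of 82 named results, 33 were called and 4 of these stayed called under every alternative. Signs turned in 12 results, all uncalled. In cMoPs minus CMPs, quantile normalization gave Atp5g2 -0.03, Cox7a2l -0.06, Cox7b -0.04, Cox8c -0.02, Sdha -0.06 and Sdhc -0.04. Control arrays alone gave Atp5g1 -0.24, Atp5g2 -0.01, Atp5g3 0.00, Cox7a2l -0.05, Cox7b -0.09, Cox7b2 0.01, Cox8c -0.03 and Sdhc -0.11, and antibiotic arrays alone gave Cox8b 0.02 and Ndufa4 0.07. The replicate block by number gave Cox7a2l 0.00 and Ndufa4 0.01, and by water and number together Atp5g2 -0.01 and Cox7a2l -0.04. Without single arrays the same difference ranged from -0.08 to 0.17 for Atp5g1, -0.02 to 0.05 for Atp5g2, -0.06 to 0.08 for Cox7a2l, -0.10 to 0.19 for Cox7b, -0.12 to 0.10 for Cox7b2, -0.01 to 0.09 for Cox8c, -0.04 to 0.03 for Ndufa4, -0.02 to 0.09 for Sdha and -0.01 to 0.07 for Sdhc. The antibiotic difference of Ndufab1 in CMPs ranged from -0.03 to 0.30. The cause of these changes was not tested. Groups of 2 or 3 arrays and the missing detection calls limit what can be said of small differences and of dim members.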

Other observations

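Some subunit symbols stood only on probe sets shared with other symbols. The brighter Cox6c/Gm6265 probe set averaged 11.96 in cMoPs and 11.88 in CMPs (log2 difference 0.09 ± 0.07), the brighter Ndufs6/Ndufs6b probe set 11.65 and 11.61 (0.04 ± 0.09), and Ndufb4/Ndufb4b/Ndufb4c 8.25 and 8.07 (0.17 ± 0.08). None of these was called by limma over all probe sets. A second probe set of Ndufs1, shared with the symbol Ino80dos, averaged 6.78 in cMoPs and 7.60 in GMPs (-0.82 ± 0.18, adjusted p = 0.0244), where the probe set of Ndufs1 alone differed by 0.04. Which of the 2 transcripts this probe set reads was not tested. Of members with a second probe set, Atp5e differed by 0.05 ± 0.07 in cMoPs against CMPs on its second and 0.07 on its first, and Cox5b by 0.17 ± 0.08 and 0.20, and Ndufa8 by 0.18 ± 0.11 and 0.02.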
